A study of Homo sapiens with 2 samples.

Results

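The HOX genes are the homeobox genes of the 4 human HOX clusters. They were taken as every row of the expression table whose symbol is HOX, a cluster letter from A to D and a paralog number. This gave 37 of the 28038 genes in the table, out of 39 human HOX genes. HOXC11 and HOXC12 had no row in the table used here, which lists no gene with 0 counts in both libraries.

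RNA was sequenced from 1 culture labelled OVCAR3-OE, made to overexpress IGF2BP3, which binds m6A-marked mRNAs. It was set against 1 culture labelled OVCAR3-NC, a control with an empty viral vector. Both are labelled OVCAR-3, an established line of human ovarian carcinoma, and neither group had a replicate. The sources used here do not give the vector's promoter or say whether either culture was a single clone.

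HOX genes encode DNA-binding factors that give cells along the head-to-tail axis their positional identity. Within a cluster the genes lie in the order of the body regions they specify, from anterior (low paralog numbers) to posterior (high numbers), and genes of the same number in different clusters are paralogs. Adult cells and cell lines commonly keep a HOX pattern that reflects their origin. In the Mullerian duct, which forms the female reproductive tract, HOXA9, HOXA10, HOXA11 and HOXA13 mark successive segments from oviduct to upper vagina.

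The listed counts summed to 48017861 in OVCAR3-OE and 43190215 in OVCAR3-NC. IGF2BP3 itself had 6376 counts, 133 CPM (counts scaled to library size), in OVCAR3-OE and 2944 counts, 67.9 CPM, in OVCAR3-NC, a ratio of 1.96 (counting interval 1.88 to 2.05). The markers of the labelled tissue were mostly low. Of 12 ovarian serous carcinoma and Mullerian markers 5 had a row, and their summed level was 2.05 FPKM (the authors' fragments per kilobase, scaled to library size) in OVCAR3-OE and 1.91 FPKM in OVCAR3-NC. PAX8, the Mullerian lineage factor, had 32 counts in OVCAR3-OE and 28 in OVCAR3-NC, and WT1, MUC16 and SOX17 had no row. Of 15 epithelial markers 11 had a row and 2 reached 1 FPKM, KRT18 and MUC1, with sums of 37.5 FPKM in OVCAR3-OE and 38.6 FPKM in OVCAR3-NC. CDH1 had 2 counts in each, and EPCAM 56 in OVCAR3-OE and 57 in OVCAR3-NC. Of 10 mesenchymal markers 8 had a row and 4 reached 1 FPKM, VIM highest at 414 FPKM in OVCAR3-OE and 422 FPKM in OVCAR3-NC, in sums of 454 and 470 FPKM. Of 8 neural markers 5 had a row, with sums of 149 FPKM in OVCAR3-OE and 117 FPKM in OVCAR3-NC, and SOX2 had 0 counts in OVCAR3-OE and 2 in OVCAR3-NC. NES stood at 143 FPKM in OVCAR3-OE and 113 FPKM in OVCAR3-NC, and MAP2 had a ratio of 2.08 (1.95 to 2.23). SYP and TUBB3 had ratios of 0.735 (0.625 to 0.863) and 0.658 (0.498 to 0.866), so the 4 measured neural markers ran both ways, with a median log2 ratio of -0.02. No listed fibroblast, leukocyte or endothelial marker reached 1 FPKM, with sums of 1.32 and 1.46, 0.641 and 0.603, and 0.0202 and 0.0231 FPKM in OVCAR3-OE and OVCAR3-NC. The part of other cell types in the HOX levels was not tested.

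HOX transcripts came from all 4 clusters, and the same genes were on in both cultures. A gene was called on at 1 FPKM or more, at trace level below that with more than 3 counts in a library, and at the floor with 3 counts or fewer. By this rule 26 of the 37 listed genes were on, and the 26 were the same in OVCAR3-OE and OVCAR3-NC. Of all genes with a row, 39.8% reached 1 FPKM in OVCAR3-OE and 39.8% in OVCAR3-NC, and 41% did so in either. A further 10 HOX genes were at trace level, and HOXB1 was at the floor with 2 counts in OVCAR3-OE and 0 in OVCAR3-NC, where 0 counts allow up to 0.0692 CPM. Just above the line stood HOXD3, at 1.19 FPKM in OVCAR3-OE and 1.08 FPKM in OVCAR3-NC. Just below it stood HOXD10, at 0.871 FPKM in OVCAR3-OE and 0.949 FPKM in OVCAR3-NC.

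**Figure D1:**
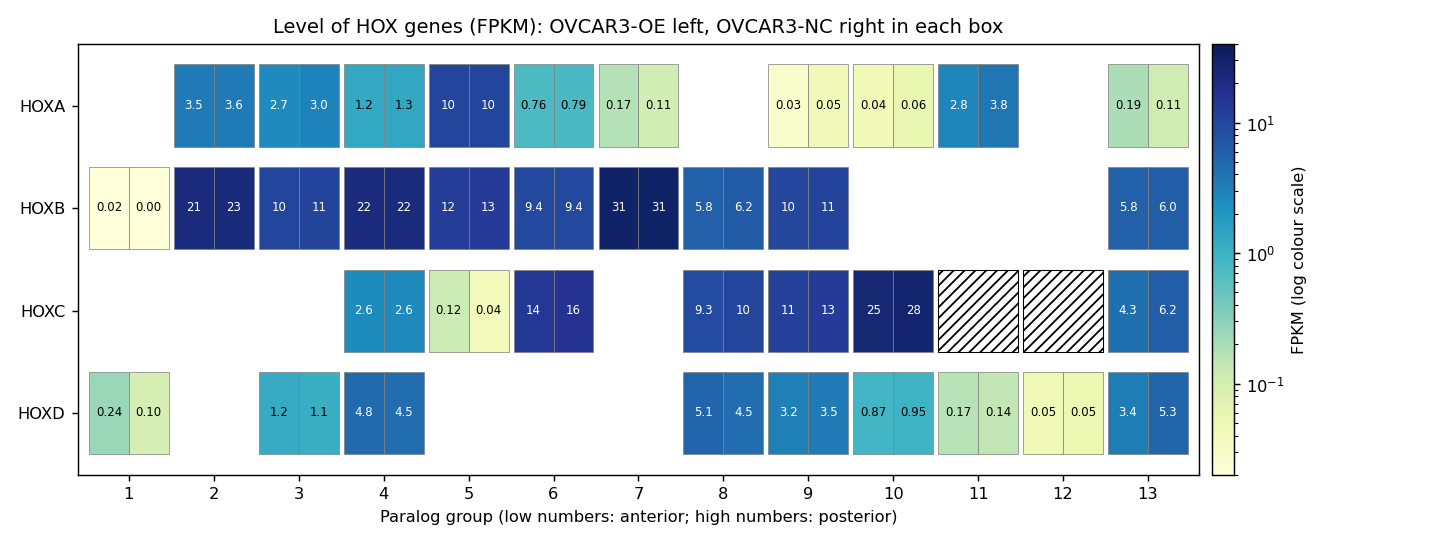
Level of 36 of the 37 listed HOX genes in FPKM, by cluster (rows) and paralog group (columns), with OVCAR3-OE in the left and OVCAR3-NC in the right part of each box. Colour is on a log scale, hatched boxes are HOXC11 and HOXC12, which had no row, and blanks are places with no value drawn; HOXB2 to HOXB9 form the longest run of boxes above 1 FPKM.

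The HOXB cluster (GRCh38 chromosome 17, 48528526 to 48729178) held most of the HOX transcripts. Its genes summed to 128 FPKM in OVCAR3-OE and 133 FPKM in OVCAR3-NC, which is 53.4% and 51.7% of the HOX total of each. HOXB7 was the highest of all HOX genes, at 30.6 FPKM in OVCAR3-OE and 30.8 FPKM in OVCAR3-NC. Even so, 1345 genes in OVCAR3-OE and 1338 in OVCAR3-NC were at that level or above, HOXB7 included. HOXB4, known as a regulator of blood stem cell self-renewal, was at 21.5 FPKM in OVCAR3-OE and 22.0 FPKM in OVCAR3-NC. HOXB2, a hindbrain patterning gene, was at 21.5 FPKM in OVCAR3-OE and 23.3 FPKM in OVCAR3-NC. HOXB4 and HOXB2 were close to each other in both cultures, and without replicates their order is not set. HOXB5 was at 12.5 FPKM in OVCAR3-OE and 13.2 in OVCAR3-NC, HOXB3 at 10.5 and 10.8, HOXB9 at 10.1 and 10.9, and HOXB6 at 9.36 and 9.35. Other genes share 32.9% of the exon bases of HOXB6. HOXB8 was at 5.78 FPKM in OVCAR3-OE and 6.21 in OVCAR3-NC. HOXB13, best known from prostate and hindgut, was at 5.80 FPKM in OVCAR3-OE and 6.03 FPKM in OVCAR3-NC, and lies 104 kb from HOXB9. All HOXB genes but HOXB1 were therefore on.

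In the HOXC cluster (chromosome 12, 53938765 to 54056030) 6 genes were on, with a sum of 67.3 FPKM in OVCAR3-OE and 76.5 FPKM in OVCAR3-NC. HOXC10, a gene of the lumbar region in vertebrate embryos, was the highest, at 25.2 FPKM in OVCAR3-OE and 28.1 FPKM in OVCAR3-NC. HOXC6 was at 14.4 FPKM in OVCAR3-OE and 15.8 FPKM in OVCAR3-NC. HOXC9 was at 11.4 and 13.3 FPKM and HOXC8, a thoracic gene in mouse, at 9.31 and 10.4 FPKM. HOXC4 at the anterior end was at 2.60 and 2.63 FPKM, and HOXC5 was at trace level with 9 counts in OVCAR3-OE and 3 in OVCAR3-NC. Other gene records on the same strand share 59.9% of the exon bases of HOXC5, so its count is uncertain. At the posterior end HOXC13, a hair and nail gene, was on at 4.30 FPKM in OVCAR3-OE and 6.16 FPKM in OVCAR3-NC, beyond the gap left by HOXC11 and HOXC12. HOXC11 and HOXC12 share no exon bases with other genes in GENCODE 29.

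The HOXA cluster (chromosome 7) had 6 genes on in separate stretches, with a sum of 25.2 FPKM in OVCAR3-OE and 27.1 FPKM in OVCAR3-NC. The anterior genes HOXA2, HOXA3 and HOXA4 were on at 3.51, 2.65 and 1.24 FPKM in OVCAR3-OE, against 3.59, 2.98 and 1.30 FPKM in OVCAR3-NC. HOXA5, needed for lung development in mouse, stood above them at 10.2 FPKM in OVCAR3-OE and 10.4 FPKM in OVCAR3-NC. From HOXA6 to HOXA9 the level was lower gene by gene. HOXA6 was at 0.762 FPKM in OVCAR3-OE and 0.793 FPKM in OVCAR3-NC, and HOXA7 at 0.173 and 0.106 FPKM, where HOXA-AS3 overlaps 62.5% of its exon bases on the other strand. HOXA9, the oviduct-segment gene, had 4 counts in OVCAR3-OE and 6 in OVCAR3-NC, and HOXA10, the uterine-segment gene, had 8 and 9 counts. HOXA11, which marks the lower uterus and cervix, was on again at 2.82 FPKM in OVCAR3-OE and 3.77 FPKM in OVCAR3-NC. HOXA13 was at trace level with 47 counts in OVCAR3-OE and 24 in OVCAR3-NC. Of the Mullerian segment genes, then, HOXA11 alone reached 1 FPKM. Other genes share 40.1% of the exon bases of HOXA6, 27.04% of those of HOXA9 and 26.3% of those of HOXA10. Over all clusters the median share was 26.7% in the 10 trace genes and 5.41% in the 26 genes that were on. The effect of shared bases on these counts was not tested. HOXA11 overlaps its antisense RNA HOXA11-AS over 31.1% of its exon bases, and HOXA11-AS had 30 counts in OVCAR3-OE and 28 in OVCAR3-NC, against 362 and 435 for HOXA11.

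HOXD (chromosome 2, 176092891 to 176190907) was the weakest cluster, with 5 genes on and sums of 19.0 FPKM in OVCAR3-OE and 20.2 FPKM in OVCAR3-NC. HOXD8 and HOXD4 were at 5.11 and 4.80 FPKM in OVCAR3-OE, and at 4.52 and 4.55 FPKM in OVCAR3-NC. HOXD9 was at 3.18 FPKM in OVCAR3-OE and 3.53 FPKM in OVCAR3-NC. Toward the posterior end the level dropped through HOXD10 to HOXD11, at 0.167 and 0.142 FPKM, and HOXD12, with 6 counts in each culture. HOXD13, the digit-forming gene of the limb, was on at the very end, at 3.37 FPKM in OVCAR3-OE and 5.30 FPKM in OVCAR3-NC. HOXD1 at the anterior end had 22 counts in OVCAR3-OE and 8 in OVCAR3-NC. Its exons overlap genes on the opposite strand over 58.1% of their length, and the sources used here do not give the strand setting of the counting, so those reads cannot be assigned with certainty. HOXD3 and HOXD4 share 62.2% and 80.5% of their exon bases with another gene on the same strand, and their split is uncertain too.

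**Figure D2:**
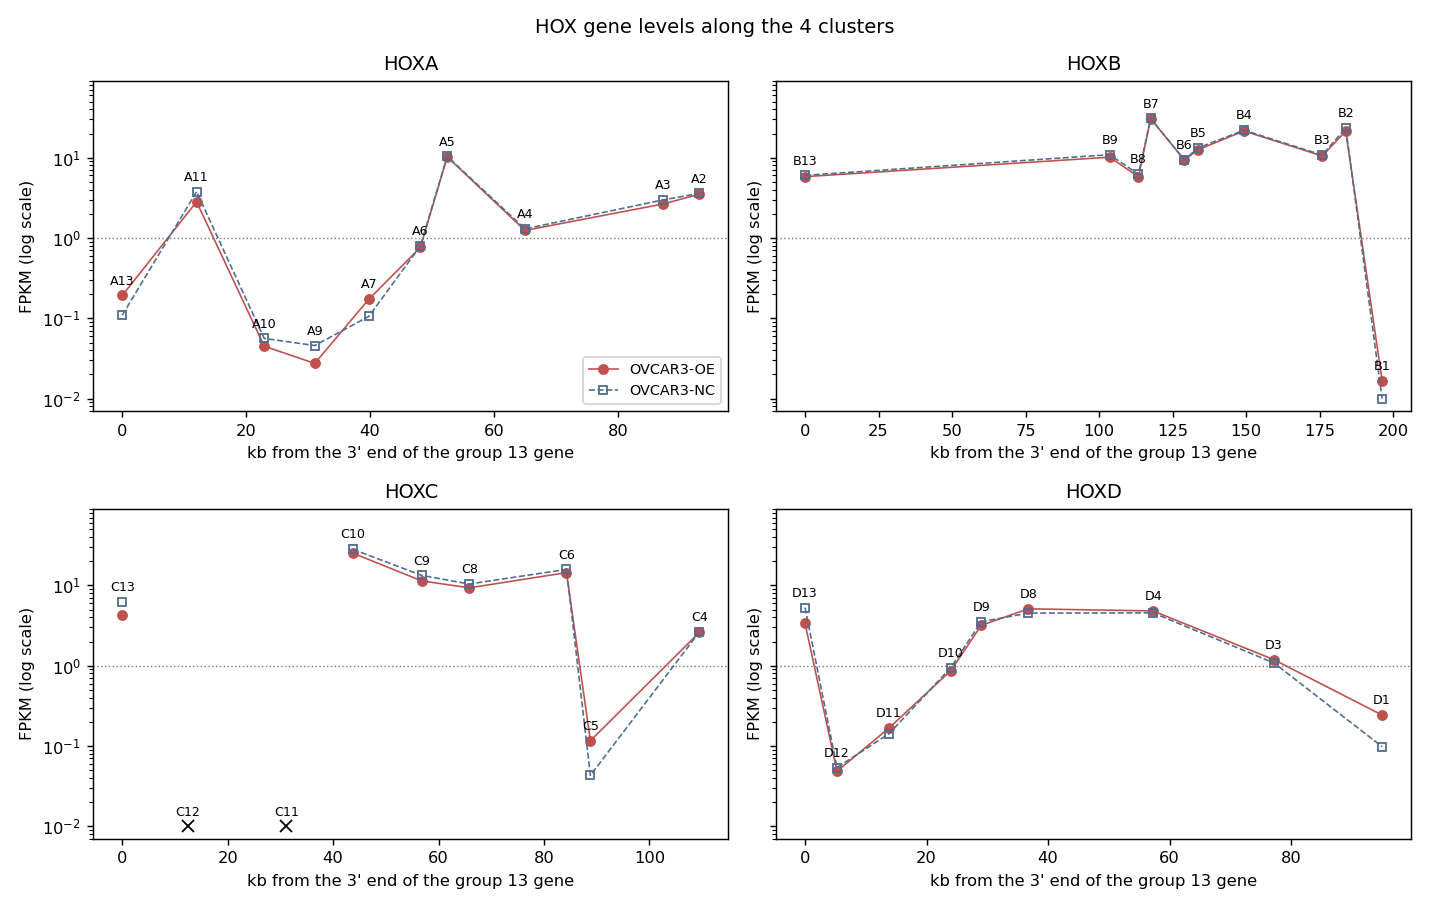
FPKM of the same HOX genes (log scale) against distance in kb from the 3' end of the group 13 gene of its cluster to its own 3' end, in OVCAR3-OE (filled circles) and OVCAR3-NC (open squares). The dotted line marks 1 FPKM, crosses mark genes with no row, and the value of 0 for HOXB1 in OVCAR3-NC is drawn at 0.01; HOXA, HOXC and HOXD each show a low or missing stretch between 2 stretches that are on.

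By paralog group, groups 2, 3, 4 and 8 were on in every cluster that has a member. For groups 3 and 4 this depends on the threshold, since HOXD3 and HOXA4 were below 2 FPKM in both cultures. Other genes share 47.3% of the exon bases of HOXA4. Group 7 had the highest sum, 30.8 FPKM in OVCAR3-OE and 30.9 FPKM in OVCAR3-NC, nearly all of it HOXB7. Group 4 followed, with 30.2 FPKM in OVCAR3-OE and 30.4 FPKM in OVCAR3-NC. Group 12 was the lowest at 0.0485 and 0.0539 FPKM, and group 11, carried by HOXA11, was at 2.99 and 3.92 FPKM. Group 13, the most posterior, was on in HOXB, HOXC and HOXD and summed to 13.7 FPKM in OVCAR3-OE and 17.6 FPKM in OVCAR3-NC.

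The comparison of OVCAR3-OE with OVCAR3-NC showed small differences in most HOX genes, and the 3 lowest ratios were those of posterior genes. A ratio is given for the 29 HOX genes whose counts in the 2 libraries sum to 50 or more, all 26 that were on and 3 at trace level. Each ratio of CPM has an exact 95% Clopper-Pearson counting interval, which covers counting error only and no variation between cultures or libraries. The reads carry no molecular identifiers, so copies of 1 molecule cannot be told apart from separate molecules. Low counts were more often even than odd (63.3% of counts from 1 to 20 in OVCAR3-OE and 64.1% in OVCAR3-NC), so intervals from halved counts, the case of both mates of a pair being counted, are also given. With 1 library per group no test was possible, and every ratio compares these 2 libraries, not the conditions. In bulk RNA from a culture, fewer cells with a transcript and less of it per cell cannot be told apart.

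On the log2 scale of CPM plus 1 the 29 genes had a median of -0.07, with 24 below 0 and 5 above. Over all 14157 genes past the same count minimum the median was 0.00 and 48.9% were below 0. HOX genes within 1.25-fold numbered 25 of 29, against 91.8% of all genes. With 1 CPM added, HOXD13 was 1.5-fold lower and no HOX gene was 1.5-fold higher. On the same scale 0.643% of all genes were 1.5-fold lower and 1.02% higher, 1.66% together. Without the added CPM, HOXA13 had a ratio of 1.77 from few counts. No HOX gene was 2-fold different, as 0.678% of all genes were. The counting interval lay below 1-fold in 8 of the 29 (27.6%), against 18.6% of all genes, and above it in 2 (6.90%), against 22.8%. Of all genes 41.4% had an interval on one side of 1-fold, or 26.8% from halved counts. From halved counts it lay below in 6 (20.7%, against 10.9%) and above in 0 (against 15.9%).

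HOXD13 had 391 counts in OVCAR3-OE and 553 in OVCAR3-NC, a ratio of 0.640 (0.561 to 0.730; 0.530 to 0.772 from halved counts). It was the lowest ratio of the 29. Its log2 ratio of -0.59 sits at the 1.5-fold line and crosses it with another scaling of the libraries. HOXC13 had 487 counts in OVCAR3-OE and 627 in OVCAR3-NC, a ratio of 0.703 (0.623 to 0.793; 0.592 to 0.834). HOXA11 had 362 counts in OVCAR3-OE and 435 in OVCAR3-NC, a ratio of 0.753 (0.653 to 0.868; 0.615 to 0.922). HOXD13, HOXC13 and HOXA11 belong to different clusters, and each was on at the posterior side of a low or missing stretch of its cluster. On the anterior side of the same stretches, HOXC10 had a ratio of 0.902 (0.857 to 0.951; 0.838 to 0.972), below 1-fold with both intervals. HOXD9 stood on that side at 0.908 (0.768 to 1.07) and HOXA5 at 0.993, and the intervals of HOXD9 and HOXA5 included 1-fold. At the trace gene HOXC5, HOXC4 on the anterior side had a ratio of 0.995 and HOXC6 on the posterior side 0.918. The position that HOXD13, HOXC13 and HOXA11 share was picked out after their ratios were seen and was not tested. HOXB13, with 847 counts in OVCAR3-OE and 791 in OVCAR3-NC, stood at a ratio of 0.969 (0.879 to 1.07). HOXA13 went the other way from few counts, 47 in OVCAR3-OE and 24 in OVCAR3-NC, a ratio of 1.77 (1.06 to 3.03; 0.850 to 3.90). Group 13 thus held both the lowest and the highest ratio of all measured HOX genes.

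Neighbours in a cluster did not all keep the same ratio. HOXD8 had 645 counts in OVCAR3-OE and 513 in OVCAR3-NC, a ratio of 1.14 (1.01 to 1.28; 0.963 to 1.35), and HOXD4 and HOXD3 had ratios of 1.06 (0.886 to 1.28) and 1.10 (0.899 to 1.36). HOXD9 and HOXD10 had ratios of 0.908 (0.768 to 1.07) and 0.923 (0.696 to 1.23), so the HOXD ratios ran on both sides of 1-fold. The interval of HOXD13 did not overlap that of HOXD8, nor those of HOXD9, HOXD4 and HOXD3, but it overlapped that of HOXD10, and from halved counts also that of HOXD9 (0.715 to 1.15). For HOXD13 and HOXD8, the HOXD genes with the highest level in each culture, the RefSeq promoters are shown next to those of HOXA11 and HOXA10, adjacent genes that were on and at trace level. Each is 250 bases before and 50 after the gene's 5'-most listed start (GRCh38.p14), 5' to 3' on the gene's strand, at chr2:176092471-176092770 (plus) for HOXD13, chr2:176129455-176129754 (plus) for HOXD8, chr7:27185183-27185482 (minus) for HOXA11 and chr7:27179812-27180111 (minus) for HOXA10. Capitals mark matches on either strand to TATAAA (the TATA box), CCAAT (the CCAAT box), GGGCGG (a GC box) or TGATNNAT (the core of a joint PBX and HOX site).
HOXD13: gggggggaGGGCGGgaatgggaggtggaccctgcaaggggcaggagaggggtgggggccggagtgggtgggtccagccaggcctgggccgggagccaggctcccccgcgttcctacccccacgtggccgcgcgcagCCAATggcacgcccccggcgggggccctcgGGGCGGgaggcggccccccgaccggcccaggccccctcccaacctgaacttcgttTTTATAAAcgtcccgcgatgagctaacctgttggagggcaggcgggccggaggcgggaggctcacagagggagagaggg
HOXD8: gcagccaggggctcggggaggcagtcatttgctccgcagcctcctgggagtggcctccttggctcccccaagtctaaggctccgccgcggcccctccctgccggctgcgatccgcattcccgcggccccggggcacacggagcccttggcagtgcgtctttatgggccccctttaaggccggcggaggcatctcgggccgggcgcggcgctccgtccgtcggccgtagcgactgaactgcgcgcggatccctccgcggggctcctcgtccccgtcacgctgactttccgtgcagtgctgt
HOXA11: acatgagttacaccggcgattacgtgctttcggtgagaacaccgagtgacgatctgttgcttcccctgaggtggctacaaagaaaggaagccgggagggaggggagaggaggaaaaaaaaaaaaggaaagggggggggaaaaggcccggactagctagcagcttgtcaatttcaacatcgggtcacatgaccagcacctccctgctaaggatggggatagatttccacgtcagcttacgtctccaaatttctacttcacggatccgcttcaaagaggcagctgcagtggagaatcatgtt
HOXA10: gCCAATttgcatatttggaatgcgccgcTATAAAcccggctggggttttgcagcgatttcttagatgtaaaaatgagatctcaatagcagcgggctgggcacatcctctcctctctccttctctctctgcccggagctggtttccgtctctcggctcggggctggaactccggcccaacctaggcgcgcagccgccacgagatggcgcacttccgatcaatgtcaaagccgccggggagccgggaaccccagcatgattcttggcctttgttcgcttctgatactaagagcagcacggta
The HOXD13 promoter has TATAAA on both strands at overlapping places, a CCAAT and 2 GGGCGG matches. HOXA10 has a TATAAA and a CCAAT, and the HOXD8 and HOXA11 windows hold none of these motifs. Of all 35116 listed promoters, 11.5% hold TATAAA, 34.6% CCAAT, 45.0% GGGCGG and 7.40% TGATNNAT. These are matches of letters and not sites of binding.

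Promoters were listed for 20 of the 39 HOX genes, 27 in all. They cover all 10 trace genes but only 9 of the 26 on genes, and no on gene of HOXB. HOXA5, HOXB7 and HOXC10, the highest genes of their clusters, had none listed, so the on promoters leave out most on genes. HOXA3 has 7 of them and HOXA10 has 2, and HOXC4 and HOXC5 share a window, so 26 are distinct and that window counts once as on and once as trace. CpG pairs, common in promoters that Polycomb can hold silent, numbered 25 (median of 11 promoters) in genes at trace level, 15 (median of 15 promoters) in genes that were on, and 14 in all promoters. HOXA3 gives 7 of the 15 on promoters, and without it the on median was 19.5 over 8 promoters. The ranges overlapped widely, 15 to 44 in trace genes and 0 to 34 in genes that were on. Whether CpG content or Polycomb bears on which HOX genes were on was not tested. CCAAT was present in 10 of the 11 trace promoters and in 7 of the 15 on promoters, or, counted once per gene, in 9 of 10 trace genes and 7 of 9 on genes.

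**Figure D3:**
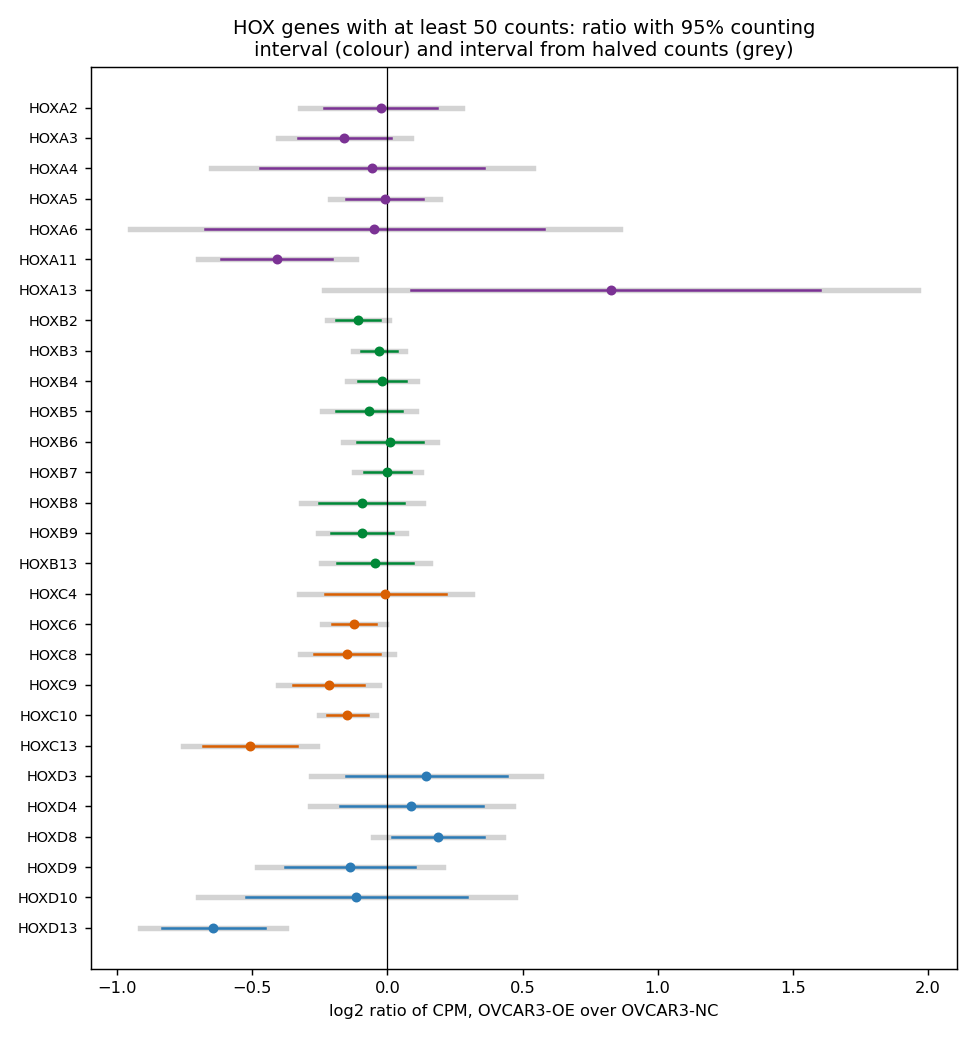
Ratio of CPM, OVCAR3-OE over OVCAR3-NC, on a log2 scale with no pseudocount, for 28 of the 29 HOX genes with at least 50 counts, coloured by cluster. Coloured lines are 95% counting intervals and grey lines those from halved counts. HOXA11, HOXC6, HOXC9, HOXC10, HOXC13 and HOXD13 lie to the left of 1-fold with both.

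HOXC was the cluster whose genes were most evenly lower. All 6 measured HOXC genes were below 0, with a median log2 ratio of -0.14, and the intervals of 5 lay below 1-fold, 4 of them also from halved counts, beside 18.6% and 10.9% of all genes. HOXC10 had 2871 counts in OVCAR3-OE and 2880 in OVCAR3-NC, a ratio of 0.902 (0.857 to 0.951; 0.838 to 0.972). HOXC9 had 911 and 959 counts, a ratio of 0.860 (0.785 to 0.943; 0.755 to 0.980). HOXC6, with 2393 and 2360 counts, was at 0.918 (0.867 to 0.972; 0.846 to 0.996), and HOXC8, with 1081 and 1085 counts, at 0.902 (0.828 to 0.982; 0.799 to 1.02). HOXC4 was at 0.995 (0.851 to 1.16). Apart from HOXC13, the HOXC ratios thus ran from 0.860 to 0.995.

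HOXB stayed closest to 1-fold, with log2 ratios from -0.11 to 0.01 over 9 genes. HOXB2, with 2534 counts in OVCAR3-OE and 2474 in OVCAR3-NC, was the one whose interval missed 1-fold, at 0.927 (0.877 to 0.980), and it spanned 1-fold from halved counts (0.857 to 1.00). HOXB7, with 2232 counts in OVCAR3-OE and 2021 in OVCAR3-NC, was at 1.00 (0.941 to 1.06), and HOXB3, with 3739 and 3457 counts, at 0.979 (0.935 to 1.03). HOXB4, HOXB5, HOXB6, HOXB8 and HOXB9 had ratios of 0.986, 0.954, 1.01, 0.936 and 0.937. In HOXA, HOXA3 stood at 0.895 (0.794 to 1.01), HOXA2 at 0.983, HOXA5 at 0.993, HOXA4 at 0.961 and HOXA6 at 0.967, and all of these intervals included 1-fold. Along the axis, the 10 measured genes of groups 9 to 13 had a median log2 ratio of -0.13 with 9 below 0, and the 19 of groups 1 to 8 a median of -0.02 with 15 below 0. This grouping was chosen after the values were seen and was not tested.

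Long noncoding RNAs of the clusters were measured beside the genes. Of 24 chosen, 19 had a row, 9 were on, and 13 passed the count minimum with a median log2 ratio of 0.04. HOXB-AS3 was the highest, at 9.29 FPKM in OVCAR3-OE and 9.82 FPKM in OVCAR3-NC and HAGLR of the HOXD cluster was next, at 7.37 FPKM in OVCAR3-OE and 6.92 FPKM in OVCAR3-NC. HOXB-AS4 was at 5.04 and 4.71 FPKM. Those furthest from 0 were all lower. HOXC13-AS, whose exons overlap HOXC13 on the other strand over 7.10% of the exon bases of HOXC13, had 19 counts in OVCAR3-OE and 44 in OVCAR3-NC, a ratio of 0.391 (0.216 to 0.684; 0.162 to 0.871). HOXA-AS3 had 44 counts in OVCAR3-OE and 66 in OVCAR3-NC, a ratio of 0.604 (0.402 to 0.897; 0.335 to 1.07), and HOXC-AS2 had 194 and 238, a ratio of 0.738 (0.607 to 0.896; 0.558 to 0.973). HOTAIR, transcribed next to HOXC11 and known for its link with Polycomb, had 2 counts in OVCAR3-OE and 1 in OVCAR3-NC, and HOTTIP, next to HOXA13, had 7 and 1.

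HOX proteins bind DNA with TALE cofactors, and the partners were present. Of 9 chosen genes 8 had a row and 5 were on. PBX3 was the highest at 22.6 FPKM in OVCAR3-OE and 22.6 FPKM in OVCAR3-NC, before MEIS2 at 4.86 and 4.63 FPKM and MEIS1 at 4.22 and 4.12 FPKM. The 5 measured cofactors had a median log2 ratio of 0.02, none was 1.5-fold different, and all 5 intervals included 1-fold, with PKNOX1 at -0.11, MEIS2 at 0.08 and MEIS1 at 0.04 furthest from 0.

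Polycomb complexes keep HOX genes silent and Trithorax-type methyltransferases keep them on. Of 13 genes of Polycomb repressive complex 2, 11 had a row and 10 were on, with a median log2 ratio of 0.01. RBBP7 was at 57.8 FPKM in OVCAR3-OE and 57.4 FPKM in OVCAR3-NC, SUZ12 at 33.6 and 31.0 FPKM and RBBP4 at 30.0 and 28.0 FPKM. The catalytic subunit EZH2 was at 20.4 FPKM in OVCAR3-OE and 20.3 FPKM in OVCAR3-NC. JARID2, which helps the complex to reach its targets, was furthest from 0, with 1741 counts in OVCAR3-OE and 1247 in OVCAR3-NC, a ratio of 1.26 (1.17 to 1.36). PHF1 at -0.15 and SUZ12 at 0.13 on the log2 scale were next, and PHF1 rested on 32 and 37 counts. The 16 measured genes of Polycomb repressive complex 1 had a median of 0.01 with 8 above and 8 below 0. BMI1 was the highest, at 36.8 FPKM in OVCAR3-OE and 38.6 FPKM in OVCAR3-NC, with CBX6 at 24.9 and 24.8 FPKM and PCGF5 at 23.6 and 22.8 FPKM. PHC3 stood at 0.20, CBX2 at -0.19 and RYBP at 0.19 on the log2 scale.

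Of the 17 Trithorax, MLL and H3K27 demethylase genes all had a row and 16 were on, and the median log2 ratio was 0.02. PSIP1, which tethers MLL to chromatin, was at 38.9 FPKM in OVCAR3-OE and 34.8 FPKM in OVCAR3-NC, WDR5 at 23.7 and 24.0 FPKM and DPY30 at 21.6 and 22.3 FPKM. The intervals of 8 lay above 1-fold and those of 2 below, or 7 and 1 from halved counts. Of all genes 22.8% lay above and 18.6% below, or 15.9% and 10.9% from halved counts. KMT2C was 1.22-fold higher in OVCAR3-OE (1.18 to 1.26), KDM6A, an H3K27 demethylase, 1.21-fold (1.15 to 1.28) and KMT2A, the MLL1 enzyme, 1.15-fold (1.12 to 1.19). No gene of the Polycomb, Trithorax or cofactor lists was 1.5-fold different in either direction, where 1.66% of all genes were. Whether these levels bear on the HOX ratios was not tested.

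**Figure D4:**
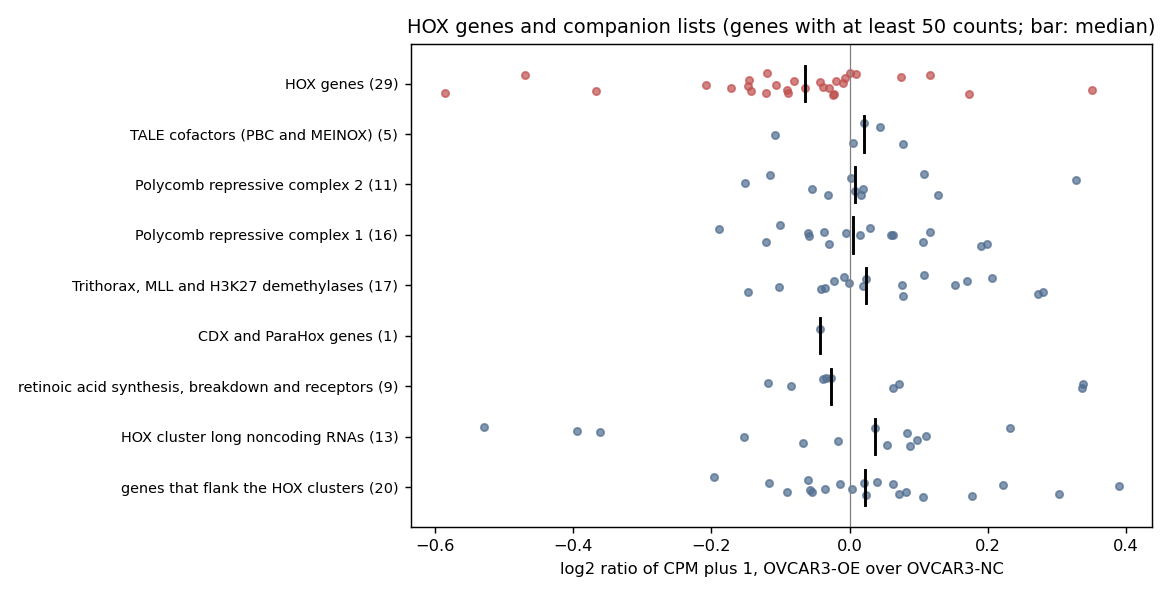
Log2 ratio of CPM plus 1, OVCAR3-OE over OVCAR3-NC, of each gene with at least 50 counts, for the HOX genes (top row) and the companion lists, with the number of genes in brackets; points are spread vertically to show overlap and black bars are medians. The HOX median is -0.07, and the medians of the cofactor, Polycomb and Trithorax lists lie from 0.01 to 0.02.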

How the data were processed

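Poly(A) RNA of 1 OVCAR3-OE and 1 OVCAR3-NC culture was sequenced after dUTP second-strand synthesis, per the labels' protocols. The authors deposited whole-number counts and FPKM values per gene, as the file headers name them. A deposited log2 fold change was not used for any value in the text. GRCh38 is the build that the submitters' processing notes name. Which aligner, counter and annotation were used is not given in the sources used here.

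TMM scaling came from edgeR 4.0.16 (R 4.3.3). Log2 ratios were of CPM plus 1, for genes with a summed count of 50 or more. FPKM values were used as the authors left them. Ratios of CPM carry 95% Clopper-Pearson intervals, made from the OVCAR3-OE share of each gene. The intervals were checked on simulated Poisson counts, which follow the model behind them and lack the excess of even low counts seen here. A count of 3, the floor, equals 0.0627 CPM in OVCAR3-OE and 0.0692 CPM in OVCAR3-NC. A gene was on at 1 FPKM.

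Positions and shared exon bases came from GENCODE 29 on GRCh38. The length behind the deposited FPKM lay within 10 bases of the GENCODE 29 exon length in 13 of 37 HOX genes, and the authors' own gene models were not used here. Promoters and miRNAs came from RefSeq (GRCh38.p14). Alternatives were library totals, DESeq2 1.42.0 size factors, other pseudocounts, count minimums and level thresholds, and FPKM plus 1. Promoter values without HOXA3 and per gene were added after seeing the data. Python 3.11.15, numpy 2.4.6, pandas 2.3.3, scipy 1.17.1 and matplotlib 3.10.9 were used.

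Some genes are not reported here by name, though counts and sums include those with a row. The members and lists were chosen with earlier results of these data known. Named genes were every HOX gene past the count minimum and, from each companion list, the 3 highest in OVCAR3-NC and the 3 furthest from 0. EZH2, HOTAIR, HOTTIP, HOXA11-AS, IGF2BP1, CDX2, the EVX genes and the promoters of HOXA11 and HOXA10 were added after values were seen.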

Additional observations from a re-analysis of the deposited data

How the results depend on the processing

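The 29 HOX log2 ratios kept their sign under library totals, pseudocounts of 0.1 and 5 CPM and FPKM plus 1. With DESeq2 size factors HOXB7, at 0.00, changed sign. The median of -0.07 ranged from -0.08 to -0.04 over all scalings, pseudocounts and count minimums tried. HOXD13 was the single gene counted as 1.5-fold lower. That count was 0 with DESeq2 size factors, a pseudocount of 5 CPM or FPKM plus 1, where HOXD13 had log2 ratios of -0.58, -0.43 and -0.53. With a pseudocount of 0.1 CPM, 1 gene, HOXA13, was 1.5-fold higher, at 0.73 against 0.35 with 1 CPM. From halved counts 0 genes had an interval above 1-fold in place of 2. The number of genes on ran from 24 to 28 with other thresholds. The summed HOXD level had a log2 ratio of -0.09, and -0.18 without HOXD8; those of HOXA, HOXB and HOXC were -0.11, -0.05 and -0.18, and -0.17, -0.07 and -0.20 without their highest gene. No paired analysis was possible because each group had 1 library. Depth limits the trace genes: 7 had at most 22 counts in OVCAR3-OE and 13 in OVCAR3-NC, and no ratio is given for them.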

Other observations

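Hairpins of the miR-10 and miR-196 families lie inside the HOX clusters, and miR-196 is known to act on HOX transcripts, HOXB8 among them. The rows of such hairpins count fragments of longer poly(A) transcripts in these libraries, not mature miRNAs. MIR196A1, near HOXB9 on chromosome 17, had 46 counts in OVCAR3-OE and 50 in OVCAR3-NC, a ratio of 0.833 (0.546 to 1.27). MIR196A2 on chromosome 12 had 0 counts in OVCAR3-OE and 2 in OVCAR3-NC, and MIR10B on chromosome 2 had 16 and 5. MIR10A and MIR196B had no row. The mature sequences (RefSeq, GRCh38.p14) are shown for the families these rows belong to, with the seed, bases 2 to 8, in capitals; miR-196a and miR-196b share a seed.
miR-196a-5p: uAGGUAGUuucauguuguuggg
miR-196b-5p: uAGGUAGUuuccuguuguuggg
miR-10a-5p: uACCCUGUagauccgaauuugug

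Retinoic acid is a classical inducer of anterior HOX genes. Of 15 genes of its synthesis, breakdown and reception 12 had a row and 8 were on. The 9 measured genes had a median log2 ratio of -0.03, with 4 above and 5 below 0. ALDH1A1, which makes retinoic acid, was the highest, at 144 FPKM in OVCAR3-OE and 115 FPKM in OVCAR3-NC, a ratio of 1.26 (1.24 to 1.29). RDH10 was at 57.5 FPKM in OVCAR3-OE and 61.5 FPKM in OVCAR3-NC, a ratio of 0.942 (0.921 to 0.964). The receptor RARG was at 10.6 FPKM in OVCAR3-OE and 10.2 FPKM in OVCAR3-NC. RARB, itself a retinoic acid target, had 39 counts in OVCAR3-OE and 19 in OVCAR3-NC, a ratio of 1.86 (1.05 to 3.40; 0.816 to 4.55 from halved counts). CYP26B1, which breaks retinoic acid down, stood at -0.12 on the log2 scale. Whether retinoic acid signalling differed between the cultures was not tested. Of the 6 CDX and ParaHox genes 2 had a row: PDX1, at 1.58 FPKM in OVCAR3-OE and 1.65 FPKM in OVCAR3-NC, and CDX2, with 4 counts in OVCAR3-OE and 0 in OVCAR3-NC.

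Genes that flank the clusters were mostly on, 19 of the 23 with a row, and their 20 measured members had a median log2 ratio of 0.02. HNRNPA1 was at 270 FPKM in OVCAR3-OE and 279 FPKM in OVCAR3-NC, CBX1 at 78.6 and 79.9 FPKM and ATP5MC3 at 74.5 and 78.2 FPKM. NFE2 stood at 0.39, TAX1BP1 at 0.30 and SKAP2 at 0.22 on the log2 scale, and NFE2 rested on 64 counts in OVCAR3-OE and 34 in OVCAR3-NC. IGF2BP1, a paralog of the overexpressed gene that lies on the chromosome of HOXB, was at 23.9 FPKM in OVCAR3-OE and 23.7 FPKM in OVCAR3-NC. EVX2, next to HOXD13, had 0 counts in OVCAR3-OE and 2 in OVCAR3-NC, and EVX1, next to HOXA13, had no row.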
